A study of Bos taurus with 2 samples.

Results

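The genes described here are 48 interferon-stimulated genes, a module of antiviral and immune genes that cells switch on when interferon reaches them, measured in whole blood of Holstein cattle. They were found on a bovine oligonucleotide microarray as every probe that is not a control and whose gene name, or the gene of its RefSeq accession, is one of the 48 symbols, older symbols included. The rule found 86 of the 43653 distinct probes, which stood for 44 of the 48 genes. ADAR, IFI44, IFI44L and SP110 had no probe under it. The study set blood of low feed efficiency, which corresponds to high residual feed intake (feed eaten beyond what body size and production call for), against blood of high feed efficiency. Each group was 1 sample of total RNA from whole blood, labelled with Cy3 and hybridised to 1 array. The labels used here give no age, sex, lactation stage, health record or number of animals behind a sample, so differences stand without a replicate check and no test was possible.

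Interferons are secreted proteins that cells release when they sense viral nucleic acid. Type I interferon binds a receptor of IFNAR1 and IFNAR2, the kinases JAK1 and TYK2 then phosphorylate transcription factors such as STAT2, which bind DNA together with IRF9 to turn on many genes. Some of these genes encode effectors that block viral entry, translation or release, others encode sensors and transcription factors that feed the response, and others encode the ISG15 conjugation system or enzymes that limit the response. In blood nearly every leukocyte can mount it, and cattle share most of the module with other mammals, while a few members, such as the 3 OAS1 copies, belong to the bovine gene set.

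Values are spot intensities in scanner units, taken as pixel medians with background subtracted. The low feed efficiency array was brighter, with a 75th percentile of 98 over all probes against 81 on the high feed efficiency array, and each array was divided by its own. A probe counted as above background over 10.9 units on an array, and a gene was represented by the brightest of its probes that passed on both arrays. Low and high stand for low and high feed efficiency throughout. A difference is the log2 ratio of low over high feed efficiency, given relative to the median of the 10339 genes measured (the all-gene median), which lay at -0.04. Equal intensities therefore stand for a value below 0. Scaling on the 7 spike-in controls would put that median at 0.32, so whether blood of low feed efficiency held more of an RNA in absolute terms depends on the scaling, and all differences below are relative to the other genes. Of all genes, those between the quartiles ran from -0.22 to 0.15 and those between the 5th and 95th percentile from -0.51 to 0.46, both before the median was taken off. Replicate spots of single probes gave a SD of the log2 difference of 0.16 for 17 bright and 0.23 for 19 dim probes, the only measure of error in these data. This SD holds noise between spots, not variation between labellings, arrays or animals. No member probe had replicate spots. In whole blood, fewer cells of a type and less RNA per cell cannot be told apart.

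Of the 44 genes with a probe, 43 were above background on both arrays, and 36 of these exceeded the all-gene median, where 50% of all genes lie by definition. Their median difference was 0.30 and their mean 0.31. Past a fold of 1.5, without the median taken off, 7 of 43 were higher in low feed efficiency (2.68% of all genes) and none was lower (3.14% of all genes). Past 2-fold, 2 of 43 were higher (0.368% of all genes) and none was lower (0.571%). The 7 were IFI47, OAS1X, IFIT2, DDX58, DTX3L, IFIT1 and EIF2AK2. The other 36 members differed by less than 1.5-fold. The count of 7 was 2 with normexp (0.474% of all genes), a background correction, here with 50 units added, that damps dim probes. It was also 2 with no background taken off (0.667%), and 23 with spike-in scaling (17.5%), which moved all genes upward. With the mean over probes it was 5 (2.26%), and DDX58, DTX3L and EIF2AK2 were no longer among them.

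**Figure D1:**
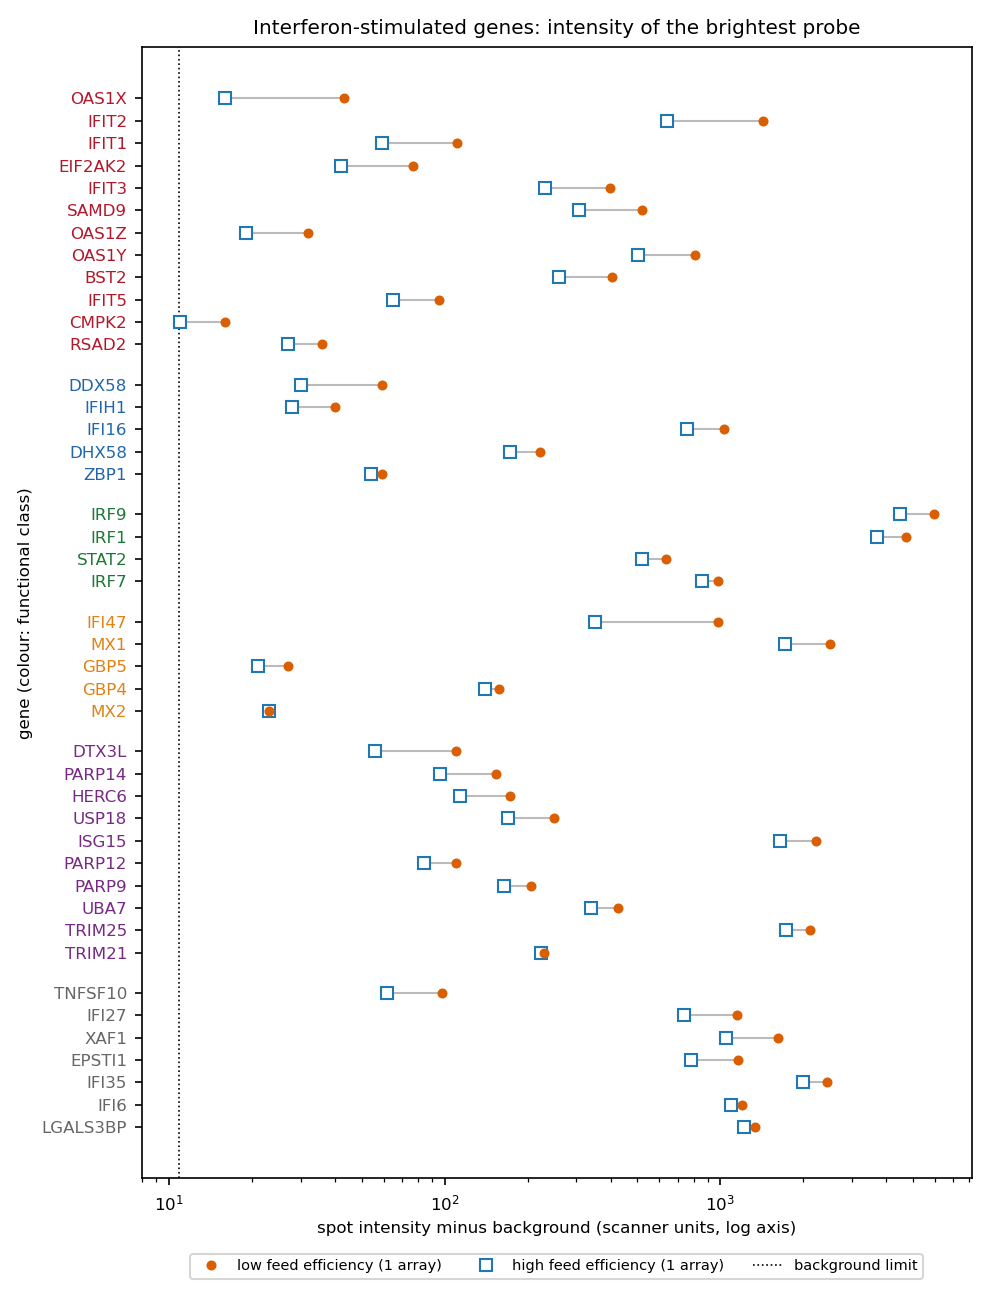
Spot intensity minus background (log axis, scanner units, not scaled between arrays) of the brightest probe of each of the 43 measured genes, with low feed efficiency as filled circles and high feed efficiency as open squares, 1 array each. The dotted line is the background limit of 10.9. All circles but that of MX2 lie right of their squares, IFI47 at 983 in low against 350 in high with the widest gap, while MX2 has both at 23.

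The antiviral effectors, which act at several steps of the viral cycle, had the highest class median. MX1 and MX2 are also antiviral but were grouped with the GTPases, so they do not enter this class. All 12 measured members exceeded the all-gene median, and the class median was 0.52. At least 1.5-fold higher in low feed efficiency were 4 of 12 (2.68% of all genes), and 1 was at least 2-fold higher (0.368%). With normexp, IFIT2 alone of the 4 stayed past 1.5-fold (0.474% of all genes), and none was past 2-fold.

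Within this class, the IFIT proteins bind viral RNA that lacks host cap marks and keep it from being translated. IFIT2 read 1428 in low against 642 in high feed efficiency, a difference of 0.92. Its rank was 62 among the 10339 genes. IFIT1 read 111 in low against 59 in high feed efficiency, a difference of 0.68, which was 0.40 with normexp. IFIT3 read 398 in low against 232 in high by its brighter probe, a difference of 0.54, and 314 in low against 204 in high by the other, a difference of 0.39. IFIT5 read 95 in low against 65 in high feed efficiency, a difference of 0.31. All 4 IFIT genes were thus on the same side, and the 5 probes ran from 0.31 to 0.92.

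The OAS enzymes make 2'-5'-linked oligoadenylates when they meet double-stranded RNA, which activates a ribonuclease that degrades RNA. OAS1X read 43 in low against 16 in high feed efficiency, a difference of 1.19, ranked 21 of all genes, and 0.325 with normexp; its spot in high feed efficiency was not flagged good. OAS1Y read 810 in low against 503 in high feed efficiency, a difference of 0.45 that changed little (0.50) with normexp. OAS1Z read 32 in low against 19 in high, a difference of 0.52, and 0.09 with normexp; its second probe, at 23 in low feed efficiency, was not above background in high feed efficiency, at 10. The 3 genes lie side by side in the ARS-UCD2.0 gene table and are related copies, and the files used here do not hold probe sequences, so the share of signal that each probe takes from the other copies was not tested. OAS2 had 8 in low feed efficiency against -3 in high feed efficiency, below background on both arrays, and has no difference.

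The remaining effectors act at several steps of the viral cycle. EIF2AK2 (PKR), a kinase that stops translation on binding double-stranded RNA, read 77 in low against 42 in high feed efficiency, a difference of 0.64, while its dimmer probe at 16 in low against 12 in high had 0.18. SAMD9, which restricts poxviruses, read 520 in low against 308 in high, a difference of 0.52, and its second probe, at 28 in low against 18 in high, had 0.40. Both SAMD9 probes and both EIF2AK2 probes exceeded the all-gene median. BST2 (tetherin), which holds budding virus at the cell surface, read 405 in low against 260 in high feed efficiency, a difference of 0.40, but a second probe read 68 in low against 74 in high, a difference of -0.36, so the mean over probes was 0.02. RSAD2 (viperin), a radical enzyme that makes a chain-terminating nucleotide, read 36 in low against 27 in high, a difference of 0.18. CMPK2, the nucleotide kinase whose gene is next to RSAD2, read 16 in low against 11 in high, a difference of 0.31 close to the background limit that was -0.04 with normexp.

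Sensors of foreign nucleic acid had a class median of 0.22, with 4 of 5 members above the all-gene median. Of these 1, DDX58, was at least 1.5-fold higher (2.68% of all genes), a call lost with normexp. DDX58 (RIG-I), the helicase that recognises 5'-triphosphate RNA, read 59 in low against 30 in high feed efficiency, a difference of 0.74, ranked 149 of all genes. Its second probe read 27 in low against 21 in high, a difference of 0.13, and the gene had 0.28 with normexp. IFIH1 (MDA5), which recognises long double-stranded RNA, read 40 in low against 28 in high, a difference of 0.28, with another probe at 0.04. The brighter sensors differed less. IFI16, a DNA sensor, read 1034 in low against 754 in high feed efficiency, a difference of 0.22 (0.04 by its other probe), and DHX58 (LGP2), a helper of the RIG-I family without a signalling domain, read 222 in low against 173 in high, a difference of 0.12. ZBP1, a sensor of left-handed nucleic acid that can start necroptosis, read 59 in low against 54 in high, a difference of -0.11, and was the only sensor below the all-gene median.

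The transcription factors that switch the module on were close to the all-gene median. Their class median was 0.08, 3 of 4 exceeded the all-gene median, and none was 1.5-fold apart. IRF9, the DNA-binding part of the complex with STAT2, read 5967 in low against 4470 in high feed efficiency, a difference of 0.18, and its other probes had 0.04 and -0.03. IRF1, a factor of the interferon-gamma response, read 4703 in low against 3712 in high, a difference of 0.11, with its other probe at 0.08. STAT2 read 634 in low against 518 in high, a difference of 0.06. IRF7, the factor that amplifies type I interferon production and is itself a target of the pathway, read 980 in low against 856 in high feed efficiency, a difference of -0.04, and 771 in low against 614 in high by its other probe, a difference of 0.09. All 4 genes were bright, and each of these differences was near the SD over replicate spots of bright probes or below it.

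**Figure D2:**
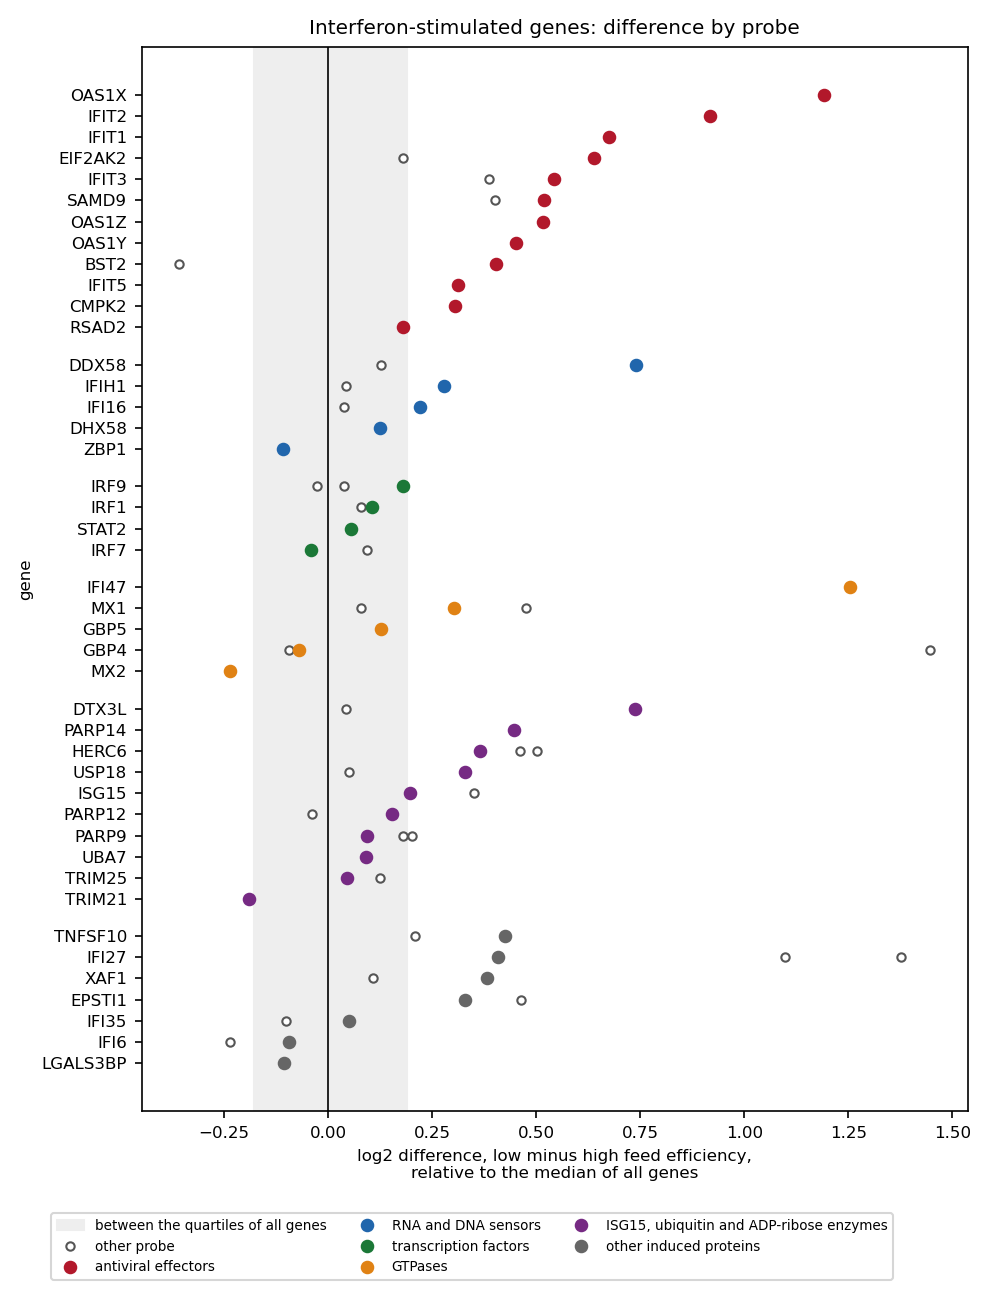
Log2 ratio of low over high feed efficiency, relative to the all-gene median, for each measured gene (filled, brightest probe, coloured by class) and its other probes above background on both arrays (open circles). Grey marks the range between the quartiles of all genes; effectors lie right of 0 except for a BST2 probe at -0.36, the transcription factors lie within 0.18 of 0, and single GBP4 and IFI27 probes stand far from the others of their gene.

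The interferon-induced GTPases were uneven, from -0.24 for MX2 to 1.25 for IFI47, with a median of 0.13 that turned to -0.02 with normexp, and 3 of 5 members above the all-gene median. IFI47, a member of the immunity-related GTPases that act on the vacuoles of intracellular microbes in mice, read 983 in low against 350 in high feed efficiency, a difference of 1.25. It ranked 18 of all genes and kept at least 1.14 under each of the alternative processings tried. MX1, a dynamin-like GTPase that traps viral ribonucleoproteins and is a usual marker of interferon in cattle, read 2497 in low against 1720 in high, a difference of 0.30, and its 3 probes ran from 0.08 to 0.47. MX2, its neighbour in the genome, read 23 on both arrays, a difference of -0.24. Guanylate-binding proteins are large GTPases induced mainly by interferon-gamma. GBP5 read 27 in low against 21 in high, a difference of 0.13, and GBP4 read 157 in low against 140 in high, a difference of -0.07. Another GBP4 probe read 61 in low against 19 in high feed efficiency, a difference of 1.45, while the remaining probes were at -0.07 and -0.095, so the direction of GBP4 depends on the probe (mean over probes 0.42).

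ISG15 is a ubiquitin-like protein that is joined to other proteins by the activating enzyme UBA7 and by ligases of the HERC family, and removed by USP18, which also damps signalling at the receptor. ISG15 itself read 2215 in low against 1642 in high feed efficiency, a difference of 0.20, and 1812 in low against 1207 in high by its other probe, a difference of 0.35. USP18 read 250 in low against 169 in high, a difference of 0.33, with its other probe at 0.05. HERC6 read 173 in low against 114 in high, a difference of 0.37, and all 3 of its probes lay between 0.37 and 0.50. UBA7 read 424 in low against 338 in high, a difference of 0.09. These 4 genes of the ISG15 cycle all exceeded the all-gene median, below 1.5-fold.

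Ubiquitin ligases and ADP-ribosyltransferases of the module were grouped with ISG15, and in the whole class 9 of 10 exceeded the all-gene median, with a median of 0.175. In this class 1 gene, DTX3L, was at least 1.5-fold higher (2.68% of all genes), a call lost with normexp and with the mean over probes. DTX3L, a ubiquitin ligase that works in a complex with PARP9, read 110 in low against 56 in high feed efficiency, a difference of 0.74, while its dimmer probe at 17 in low against 14 in high had 0.04. PARP9 read 206 in low against 164 in high, a difference of 0.09, with 3 probes from 0.09 to 0.20, and PARP14 read 154 in low against 96 in high, a difference of 0.45. PARP12 read 110 in low against 84 in high, a difference of 0.15, and 47 in low against 41 in high by its other probe, a difference of -0.04. TRIM25, the ligase that activates RIG-I, read 2108 in low against 1734 in high, a difference of 0.05, with another probe at 0.125. TRIM21, a cytosolic antibody receptor with ligase activity, read 230 in low against 223 in high feed efficiency, a difference of -0.19, and was the only gene of the class below the all-gene median.

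The other induced proteins held members on either side, with a class median of 0.33, 5 of 7 above the all-gene median and none 1.5-fold apart. TNFSF10 (TRAIL), a ligand of death receptors, read 98 in low against 62 in high feed efficiency, a difference of 0.43. XAF1, a pro-apoptotic antagonist of XIAP, read 1613 in low against 1052 in high, a difference of 0.38, and EPSTI1 read 1154 in low against 780 in high, a difference of 0.33. The second probes of TNFSF10, XAF1 and EPSTI1 had 0.21, 0.11 and 0.46. IFI27, a small mitochondrial protein and one of the most inducible genes of the module, read 1153 in low against 738 in high by its brightest probe, a difference of 0.41. Its other probes read 798 in low against 261 in high and 58 in low against 23 in high, differences of 1.38 and 1.10, so the mean over probes was 0.96. IFI35 read 2438 in low against 2000 in high, a difference of 0.05, and 302 in low against 275 in high by its other probe, a difference of -0.10. IFI6, a relative of IFI27, read 1201 in low against 1089 in high, a difference of -0.09, and LGALS3BP, a secreted glycoprotein, read 1335 in low against 1221 in high, a difference of -0.11. The related genes IFI27 and IFI6 thus lay on different sides of the all-gene median.

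Set side by side, the class medians were 0.52 for antiviral effectors, 0.33 for other induced proteins, 0.22 for sensors, 0.175 for the ISG15, ubiquitin and ADP-ribose enzymes, 0.13 for GTPases and 0.08 for transcription factors. Classes of 4 to 12 genes on 1 pair of arrays allow no test of these differences. The effectors had the highest class median under each of the 14 alternative processings, at 0.365 to 0.541, and the transcription factors stayed between 0.04 and 0.17. Not all of these could change the order. Scaling on the median of detected probes or on spike-in controls shifts all genes alike, and no member spot was saturated. The sensors ranged from 0.125 to 0.222, the ISG15, ubiquitin and ADP-ribose class from 0.14 to 0.22, the other induced proteins from 0.21 to 0.38, and the GTPases, whose median rests on GBP5 near background, from -0.02 to 0.32.

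**Figure D3:**
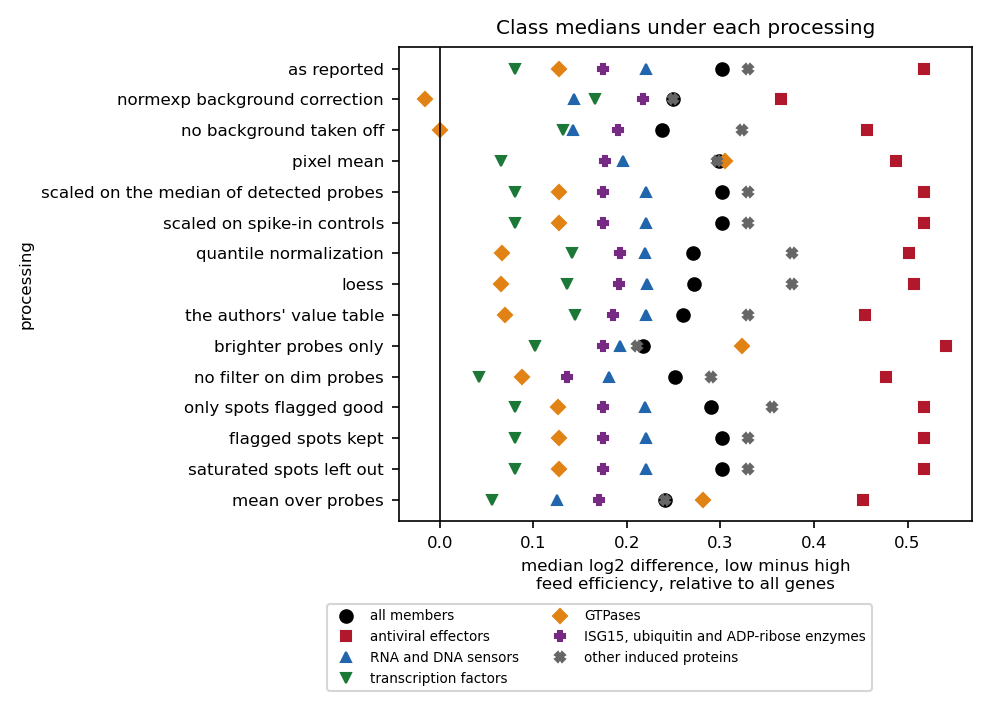
Median log2 ratio of low over high feed efficiency, relative to all genes, of all measured interferon-stimulated genes (black) and of each class, as reported (top) and under 14 alternative processings. Effectors are rightmost on every line and transcription factors lie between 0.04 and 0.17, while GTPases move from -0.02 to 0.32.

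Signal strength bears on how far these values can be read, since 1 unit of intensity is a large step for a dim probe. Among 14 members with a signal at or below the median of all probes above background, 12 exceeded the all-gene median and 5 were at least 1.5-fold higher. Passing that fold was more common for dim genes in general. Only 66 of the 277 genes that passed it came from the 6131 brighter genes, and the rest came from the 4208 dimmer ones. Among the 29 brighter members 24 lay above the median of the 6131 genes of that brightness, with a median of 0.22 relative to them, and 2 were at least 1.5-fold higher (1.08% of these genes) and none was 1.5-fold lower (1.99%). Those 2 were IFIT2 and IFI47, which were also the only members at least 1.5-fold higher with normexp, where 0.474% of all genes passed. OAS1X, IFIT1, EIF2AK2, DDX58 and DTX3L passed 1.5-fold without it but had 0.325, 0.40, 0.31, 0.28 and 0.43 with it, on the same side of the all-gene median.

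**Figure D4:**
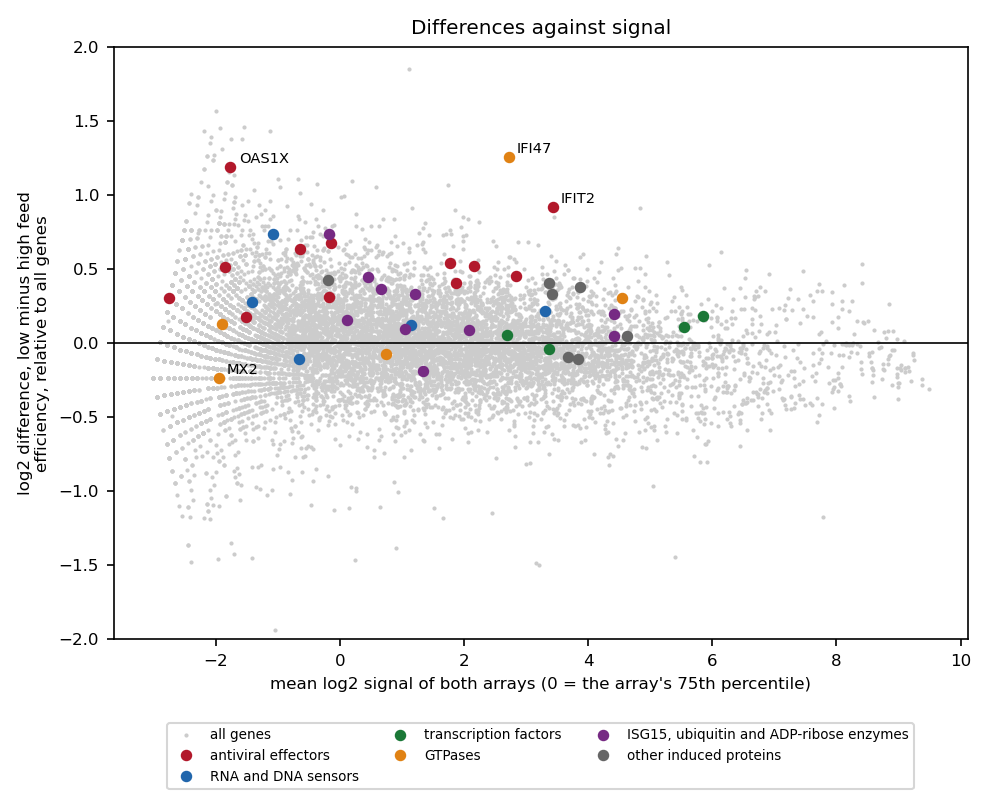
Log2 ratio of low over high feed efficiency relative to the all-gene median, against the mean log2 signal of both arrays (0 is the array's 75th percentile), for all genes (grey) and the interferon-stimulated genes (coloured by class). Grey spread widens at low signal, where OAS1X lies at 1.19, while IFI47 at 1.25 and IFIT2 at 0.92 lie above the bulk of genes as bright as they are; 10 genes beyond 2 on the vertical axis are not drawn.

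At the level of single probes the shift was smaller. Of the 86 probes, 3 were left out as bright spots flagged not found, 74 were above background on both arrays, 4 only in low feed efficiency, none only in high feed efficiency and 5 on neither. The 4 were second probes of OAS1Z, IFIH1 (18 in low against 10 in high feed efficiency), TRIM25 (11 in low against 10 in high) and PARP14 (15 in low against 8 in high). Over all 43096 probes kept, 24329 were above background in low, 22718 in high and 22000 on both. The limit of 10.9 was the same on both arrays and the low array was brighter, so more probes passed only in low array-wide as well. Of the 74, 61 lay above the median of all 22000 probes above background on both arrays (49.9% of all probes), 10 were at least 1.5-fold higher in low feed efficiency (3.18% of all probes) and none was 1.5-fold lower (3.43%) or 2-fold lower (0.577%). At least 2-fold higher were 5 (0.464% of all probes): the single probes of IFI47 and OAS1X, 2 of 3 for IFI27 and 1 of 3 for GBP4. The median difference of the 74 probes was 0.18 relative to all probes. None of the spots had saturated pixels, and 63 of the 74 probes were flagged good on both arrays. For 25 genes with several such probes the median gap between the lowest and the highest was 0.19. In 18 of the 25 every probe exceeded the all-gene median, in 1, IFI6, every probe lay below it, and in 6 the probes were on both sides. The gap was over 0.5 for BST2, DDX58, GBP4, DTX3L and IFI27.

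Several members lie next to each other in the ARS-UCD2.0 gene table, used here for names and gene order only. IFIT2, IFIT3 and IFIT5 lie together, with 1 gene between the last pair, and had 0.92, 0.54 and 0.31. OAS1Y, OAS1X and OAS1Z follow OAS2 and had 0.45, 1.19 and 0.52. RSAD2 and CMPK2 are adjacent and had 0.18 and 0.31. PARP9, DTX3L and PARP14 are consecutive and had 0.09, 0.74 and 0.45. MX2 and MX1 are adjacent and lay on different sides of the all-gene median, at -0.24 and 0.30.

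The steps of the pathway before the induced genes were described with lists of ligands, receptors, inducers and inhibitors. Interferon genes were at background: of 16 probes for 9 of 21 listed ligand genes, 14 were below the limit on both arrays. IFNB3 was above the limit only in low feed efficiency, at 12 in low against 6 in high, and IFNT3 read 70 in low against 71 in high, a difference of -0.26. Receptors and kinases had a median of 0.19 over 8 measured genes, 6 of them above the all-gene median and none 1.5-fold apart. IFNAR2, a chain of the type I receptor, read 1392 in low against 856 in high feed efficiency, a difference of 0.47 that its second probe matched within 0.01. The interferon-gamma receptor chains IFNGR1 and IFNGR2 had 0.375 and 0.27, at 629 in low against 412 in high and 514 in low against 362 in high, and IL10RB, a chain of the type III receptor, had 0.22 at 1073 in low against 782 in high, with 3 probes from -0.321 to 0.365. IFNAR1 was at 14 in low against 9 in high feed efficiency, and IFNLR1 at 8 in low against 6 in high, so neither was above background on both.

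Genes that act before interferon is made were spread around the all-gene median. Of 11 measured genes of interferon induction 5 exceeded the all-gene median, with a median of -0.09. MAVS, the adaptor of RIG-I and MDA5, read 229 in low against 318 in high feed efficiency, a difference of -0.71 by its single probe, and was the only one at least 1.5-fold lower. Unadjusted, MAVS had -0.75 as reported and -0.56 with normexp, short of 1.5-fold. Inhibitors of interferon signalling had a median of -0.19 and a mean of -0.045 over 7 genes, of which 2 exceeded the all-gene median. By brightest probe, IRF2, a repressor of interferon targets, was farthest from 0 at 837 in low against 486 in high. Its difference was 0.55, with a second probe at 0.12. Dimmer probes of other inhibitors lay farther out, and all probes of the list ran from -1.023 to 1.335. Median differences along the pathway were thus 0.19 for receptors and kinases, -0.09 for inducers and -0.19 for inhibitors, with no test between them.

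Other interferon-stimulated genes, outside the 48, were centred near the all-gene median. Of 40 listed, 28 were measured, 16 exceeded the all-gene median, and their median was 0.01. At least 1.5-fold higher were 2 (2.68% of all genes), and none was 1.5-fold lower (3.14%). The 2 were TRANK1, at 48 in low against 21 in high feed efficiency with 0.96, and ISG20, an exonuclease that degrades viral RNA, at 996 in low against 527 in high with 0.68. Unadjusted for the all-gene median, TRANK1 had 0.92 as reported but 0.27 with normexp and 0.45 with no background taken off, below 1.5-fold, while ISG20 had 0.64 as reported and 0.68 with normexp. Both lists were drawn up with earlier results of these 2 arrays known, so the contrast of 0.30 with 0.01 describes these lists and is no test of one against the other.

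**Figure D5:**
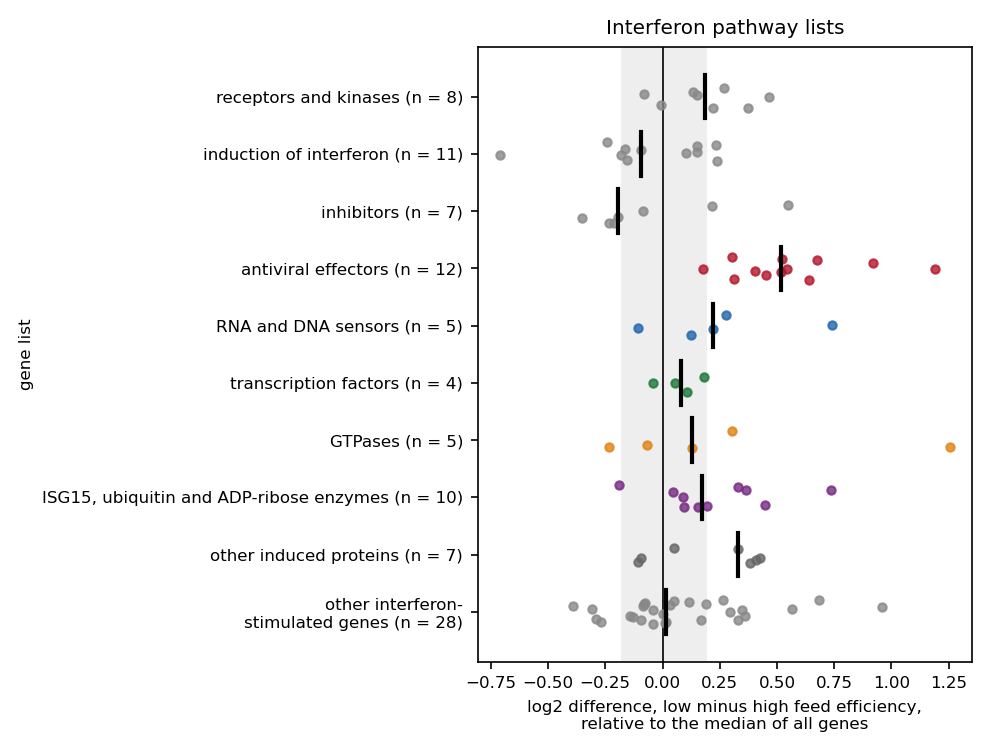
Log2 ratio of low over high feed efficiency relative to the all-gene median for each measured gene, by list, with the list median as a black bar and the range between the quartiles of all genes in grey. Receptors and kinases, the effectors and most other classes have their median right of 0, inducers at -0.09 and inhibitors at -0.19 left of it, and the 28 other interferon-stimulated genes are centred at 0.01.

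Blood cell markers differed between the samples as well, and their part in the interferon values was not tested. As a check of the tissue label, the globins HBA, HBB and HBG, the calgranulins S100A8 and S100A12, CD3E and CD79A were all above background. Of 14 neutrophil markers 13 were measured and 10 exceeded the all-gene median, with a median of 0.17. At least 1.5-fold higher were 2 (2.68% of all genes), named after their values were seen. These were CATHL1, 38 in low against 16 in high feed efficiency, and CATHL2, 32 in low against 16 in high. Unadjusted, CATHL1 and CATHL2 had 0.22 and 0.12 with normexp and 0.41 and 0.26 with no background taken off, below 1.5-fold. The summed level of the 13 measured neutrophil markers, in units of each array's 75th percentile, was 919.9 in low against 796.9 in high feed efficiency. Such sums mostly follow the brightest genes, here S100A12 at 48851 in low against 34561 in high. Differences for S100A12 and S100A8 were 0.26 and 0.14. Markers of natural killer and cytotoxic cells went the other way, with 1 of 8 above the all-gene median, a median of -0.30 and a summed level of 203.3 in low against 264.0 in high feed efficiency; the brightest, CCL5 and GZMB, had -0.395 and -0.145. Plasmacytoid dendritic cells, the main blood source of type I interferon, had 2 of 6 markers above the all-gene median and a median of -0.22, at summed levels of 76.2 in low against 87.3 in high. Their brightest markers were GZMB, which cytotoxic cells share, and IRF8, at 0.00. Of the lists, KLRD1, KLRF1, CA1 and SLC4A1 were below background on both arrays. A probe of FCGR1A, for monocytes, was above background only in low, at 64 in low against 4 in high. Its other probe was below background on both arrays, at 5 in low against 4 in high. For CD28, of T cells, a probe was above background only in low, at 15 in low against 7 in high. The other CD28 probe was below background on both, at 10 in low against 8 in high.

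The other marker lists were mixed. Of 9 measured monocyte markers 4 exceeded the all-gene median, with a median of -0.08 and summed levels of 331.2 in low against 370.1 in high feed efficiency. Of 10 T cell markers 3 did, with a median of -0.11 and sums of 211.2 in low against 258.6 in high, and of 7 B cell markers 3 did, with a median of -0.01 and sums of 95.4 in low against 100.4 in high. Erythroid markers, 3 of 7, had a median of -0.01 and sums of 513.5 in low against 446.1 in high feed efficiency, and platelet markers, 2 of 6, had -0.21 and sums of 293.6 in low against 284.9 in high. Markers past 1.5-fold, named after their values were seen, were CSF1R for monocytes with -0.82, NKG7 for cytotoxic cells with -0.61, IL7R for T cells with 0.83, and ALAS2 and GATA1 for red cells with -1.38 and -0.55. With normexp, ALAS2 and CSF1R stayed past 1.5-fold, at -1.03 and -0.74 unadjusted, while NKG7, IL7R and GATA1 did not, at -0.51, 0.21 and -0.34. The brightest members were FCN1 with -0.37 and LYZ with 0.355 for monocytes, CD4 with -0.37 and CD3E with -0.12 for T cells, and CD79A with 0.15 and TNFRSF13C with -0.01 for B cells. HBA and HBG, for red cells, had 0.17 and 0.365, and GNG11 and PF4, for platelets, had 0.26 and -0.02. Beside the median of 0.30 of the interferon-stimulated genes, the medians of the 8 marker lists ran from -0.30 for cytotoxic cells to 0.17 for neutrophils. The members were chosen with earlier results of these arrays known, and the part of cell make-up in their values was not tested.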

How the data were processed

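Total RNA of whole blood was labelled with Cy3, per the labels, and each of the 2 samples was read from 1 array of the same slide in 1 scan with GenePix Pro 6.1.0.4 at 532 nm, per the file headers. The deposited intensity values are spot pixel medians and backgrounds that, per the file headers, come from negative controls and were not normalized. The deposited score and percent columns are the scanner's spot flags and shares of saturated pixels, per the file headers. Agilent Feature Extraction is listed in the submitters' processing notes, without a version. The authors' deposited table holds log2 values, with no normalization stated in any source used; its rows matched the scanner values only after a move by 1 row, and it served as an alternative.

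Background was subtracted, control spots and bright spots flagged not found were left out, and each array was divided by its 75th percentile. Depth has no counterpart on arrays; their number limits the precision. With 1 array per group no test was run, and lists are described by counts past 1.5-fold and 2-fold (unadjusted differences) and by medians, beside all genes. All members are named. Of each pathway list up to 3 genes past 1.5-fold, otherwise the 1 farthest from 0, are named, with the receptors always, and of each marker list the 2 brightest; 1 gene of the rule is not reported here. The members and lists were chosen with earlier results of these data known. Background, scaling, filters, flags, probe choice and the authors' table were varied. The calculation was tested on simulated data, with changes put into genes well above background and less noise than the replicate spots showed. Normexp was not tried there, so that test covers neither normexp nor the calls of dim genes.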

Additional observations from a re-analysis of the deposited data

How the results depend on the processing

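The median difference of the interferon-stimulated genes relative to all genes lay between 0.217 (29 members, brighter probes) and 0.302 under 14 alternatives, each of which measured 29 to 44 members. Scaling on the median of detected probes or on spike-in controls could not move it, since either shifts all genes alike. A further alternative, counts on differences relative to the median of all genes, was chosen after seeing the data and left 7 members past 1.5-fold. Counts depended on the processing. At least 1.5-fold higher in low feed efficiency were 7 members as reported (2.68% of all genes) and 2 with normexp (0.474%). With no background taken off 2 were (0.667%), among brighter probes 2 (1.08%) and with the mean over probes 5 (2.26%). Quantile normalization (2.61%), the authors' table (2.29%) and spots flagged good (2.19%) gave 6 each. Spike-in scaling gave 23 (17.5% of all genes), and a limit of 4-fold gave 0. At least 2-fold higher were 2 as reported (0.368% of all genes), 1 with normexp (0.0484%) and 1 with no background taken off (0.0484%). Among brighter probes 1 was (0.114%), and with spots flagged good on both arrays 1 (0.105%). Spike-in scaling gave 5 (2.07%), and a limit of 4-fold gave 0. Brighter probes and good spots leave fewer genes measured. Normexp added 50 units to every value, and background left in also adds to every value, which shrinks the log2 ratios of dim probes most. Spike-in scaling moves the difference of every gene by the same amount. How much of each change in the counts this makes up was not tested. The GTPase median of 0.127 was -0.016 with normexp, 0.305 with pixel means and 0.323 among brighter probes. Of 43 members, 33 stayed above the all-gene median wherever they were measured, ZBP1, MX2, TRIM21, IFI6 and LGALS3BP stayed below it, and CMPK2, IRF7, GBP4, GBP5 and IFI35 took either sign. No replicate could be left out with 1 array per group. No paired analysis was possible because the groups share fewer than 2 replicate numbers.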

Other observations

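The 4 genes with no probe under the rule are named in the free-text description of 8 probes, of which 7 were kept and above background on both arrays. The remaining probe, for IFI44L, was over the limit on both, at 43 in low against 28 in high. It was left out as a bright spot flagged not found and has no difference. Of the 7, none was 1.5-fold apart and 6 lay above the all-gene median, with a median of 0.18. SP110, a nuclear body protein, read 156 in low against 98 in high feed efficiency, a difference of 0.43. ADAR, the enzyme that edits adenosines in double-stranded RNA, read 191 in low against 162 in high by its brightest probe, a difference of 0.00, with other probes at 0.28 and 0.22. The IFI44L probes that were kept read 17 in low against 13 in high and 20 in low against 15 in high, differences of 0.15 and 0.18. The IFI44 probe read 19 in low against 22 in high feed efficiency, a difference of -0.45.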
